A study of Drosophila melanogaster with 2 samples.

Results

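The histone variant genes of Drosophila melanogaster described here are 4 genes, namely His2Av, His4r, His3.3A and His3.3B, out of 13968 protein-coding genes on the chromosome arms. They were chosen by symbol, and they were selected on a measured value, since an earlier reading of the same peak lists had found a peak at each. The presence of a peak at these genes is therefore a description and was not tested. All 4 symbols matched the annotation, and all 4 genes are accounted for below.

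The peaks come from chromatin immunoprecipitation and sequencing (ChIP-seq) of ZIPIC, also named CG7928, a zinc-finger protein of the architectural class that is known to recruit CP190. The material was whole embryos of both sexes, aged 0 to 24 h, from 1 transgenic line in which ZIPIC carries green fluorescent protein at its C terminus. The precipitation used an antibody against that tag per the sample descriptions, although the antibody field of the labels names CG7928. There is 1 group, with biological replicates numbered 2 and 3, and no other condition, so peaks are compared between genes and between the 2 replicates. A mixed embryo pool averages over all cell types and ages, and peak lists hold no readout by which tissue identity could be checked.

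Histones of the replication-dependent class are made in S phase from a tandem array of intronless genes, whose mRNAs end in a stem-loop in place of a poly(A) tail. Replacement variants are made throughout the cell cycle from single genes with introns and are exchanged into chromatin outside replication. H2A.V, the product of His2Av, serves in the fly both the roles that H2A.Z and H2A.X have in mammals; H3.3, from His3.3A and His3.3B, marks transcribed chromatin; and His4r encodes histone H4 from outside the array.

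The reference annotation showed this division. The coding sequence was split over 4 exons in His2Av and over 2 exons in each of the other members, and lay in 1 exon in every replication-dependent gene. His3.3A and His3.3B encode the same 136 residues although 57 of their 408 coding bases differ (86.0% identical). His4r encodes the same 103 residues as the commonest His4 copy, with 50 of 309 bases differing (83.8% identical). Each H3.3 gene differs from the commonest His3 copy at 4 residues, with 80.4% of coding bases identical for His3.3A and 78.4% for His3.3B. His2Av is the most distant, with 141 residues against 124 in the commonest His2A protein. Of the alignment positions, gaps counted, 54.2% are identical, with 46 substituted residues and 19 gap residues.

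The stretches between transcription start sites are shown because 2 of the 4 summits lie in them, and because the array genes are set against them below for repetition. All are on Release 6 of the genome (dm6), read 5′ to 3′ in the direction of the histone gene. Capitals mark matches, on either strand, to any of 6 strings: CAGGGCTG, a core string known for ZIPIC, its shorter and looser form AGGGNTG, the BEAF-32 string CGATA, the DREF string TATCGATA, the M1BP string GGTCACACT, and the TATA string TATAAA. Each of the 4 stretches occurred 1 time in the reference genome.
His2Av (chr3R:26866808-26866928, plus strand, all 121 bases between the starts of ball and His2Av): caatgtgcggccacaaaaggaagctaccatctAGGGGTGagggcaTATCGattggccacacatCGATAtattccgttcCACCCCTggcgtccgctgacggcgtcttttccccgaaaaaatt
His4r (chr3R:14625704-14625754, plus strand, all 51 bases between the starts of put and His4r): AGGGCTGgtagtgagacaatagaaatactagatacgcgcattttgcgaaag
His3.3A (chr2L:5055017-5055057, plus strand, all 41 bases between the starts of CG14036 and His3.3A): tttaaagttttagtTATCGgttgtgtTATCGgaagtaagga
His3.3B (chrX:9156670-9156799, minus strand, the 130 bases upstream of the first start): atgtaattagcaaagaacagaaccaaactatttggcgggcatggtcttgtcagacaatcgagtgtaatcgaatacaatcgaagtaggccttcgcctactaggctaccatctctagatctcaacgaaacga

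For comparison, the middle 100 bases of a spacer between divergent array genes are given for both pairs of genes that face away from each other, as the version with the most identical copies.
His2B-His2A (chr2L:21423623-21423722, plus strand, between His2B:CG17949 and His2A:CG31618, 12 identical copies in the array): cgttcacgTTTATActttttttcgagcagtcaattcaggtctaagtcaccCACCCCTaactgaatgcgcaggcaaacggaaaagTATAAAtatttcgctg
His4-His3 (chr2L:21489689-21489788, plus strand, between His4:CG33887 and His3:CG33836, 6 identical copies in the array): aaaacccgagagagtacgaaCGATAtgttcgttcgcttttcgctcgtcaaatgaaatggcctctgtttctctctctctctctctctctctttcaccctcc

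The deposited dm6 lists hold 30000 candidate entries for each replicate, 30000 for the pooled replicates and 2971 optimal peaks. The candidate lists mix peaks with weaker background entries, and every optimal peak is stronger than every pooled entry outside that list. Each entry has a signal value, which is the authors' own score on a scale that the sources do not give; it is used here to describe and rank entries within a list. Read depth is unknown. An entry was assigned to a gene when its summit, the deposited point of highest signal, lay within 500 bp of a start. By that rule all 4 members had exactly 1 optimal peak, in a genome in which 18.3% of protein-coding genes had one. In the pooled list all 4 members had an entry (50.7% of protein-coding genes), in the list of replicate 3 likewise 4 (56.4%), and in that of replicate 2 only His2Av and His4r (31.7%). Since the members were picked for having a peak, nothing is read from these counts.

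The members fell into a strong pair and a weak pair. His2Av (FBgn0001197, chr3R:26866929-26869220, plus strand, 1 start) had the strongest peak of the 4. Its entry (chr3R:26866604-26867016) had a signal of 1362 and ranked 276 among the 2971 optimal peaks. The signal was 628 in replicate 2 (rank 309 of 30000) and 731 in replicate 3 (rank 232). Both libraries thus placed it in the strongest 1.03% of their entries or higher.

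His4r (FBgn0013981, chr3R:14625755-14626614, plus strand, 2 starts 33 bp apart) followed. Its entry (chr3R:14625580-14625861) had a signal of 966 and ranked 386. Replicate 2 gave 497 (rank 387) and replicate 3 gave 468 (rank 376). The rank was almost the same in the pooled list and in each library. At 282 bp the entry was narrower than the commonest width of 410 bp. That width, with the summit at the same offset, recurs in 58.3% of optimal peaks and 95.8% of pooled entries. The difference is therefore not read as a narrow peak.

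His3.3B (FBgn0004828, chrX:9152523-9156669, minus strand, 3 starts) had a far weaker peak. Its optimal entry (chrX:9156422-9156831) had a signal of 129 and ranked 2887. Replicate 3 held 4 entries within 500 bp of its starts, with signals of 89.4, 65.8, 29.9 and 28.4, of which the strongest ranked 2071. Replicate 2 held none. The nearest summit in replicate 2's list lay 17620 bp from any start of the gene.

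His3.3A (FBgn0014857, chr2L:5055058-5056149, plus strand, 2 starts) was the weakest. Its optimal entry (chr2L:5054900-5055309) had a signal of 127 and ranked 2927. Replicate 3 gave 94.3 (rank 1885) and a second, overlapping entry of 42.1 (rank 7526), while replicate 2 had no entry closer than 8921 bp. At both H3.3 genes, of the 2 replicate lists only that of replicate 3 held entries, and the strongest of them ranked higher there than the optimal peak did in the pooled list.

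**Figure D1:**
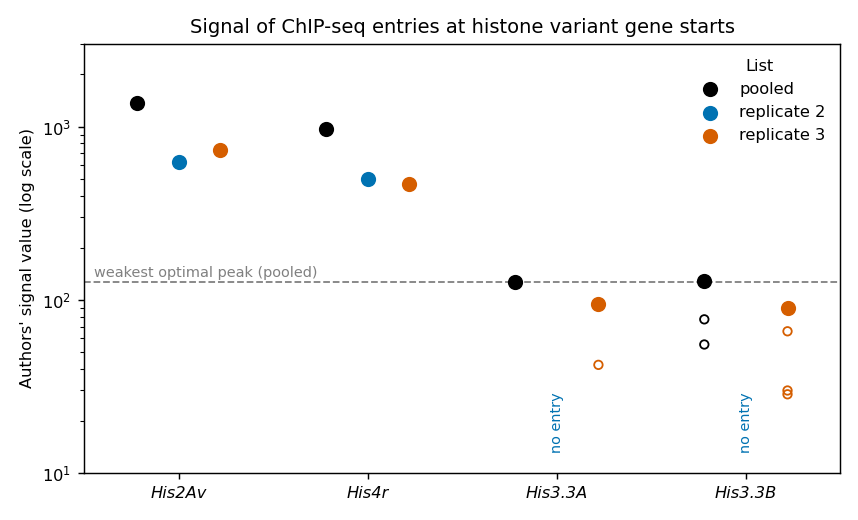
Signal value (vertical axis, log scale, the authors' score) of the entries within 500 bp of a start of each histone variant gene, by list. Filled points are the strongest entry and open points weaker entries. His2Av and His4r stand at 468 to 1362 in all 3 lists, whereas His3.3A and His3.3B lie at the dashed line of the weakest optimal peak (126) in the pooled list and have no entry in replicate 2.

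The weak pair sat at the edge of the optimal list. The weakest optimal peak, ranked 2971, had a signal of 125.98, and the strongest pooled entry left out of the list had 125.96. His3.3A lay 44 ranks and His3.3B 84 ranks inside that edge. Absence from replicate 2 was frequent at this strength but not confined to it. Of the weakest 100 optimal peaks, 34 had no replicate 2 entry within 100 bp of the summit and 5 had no replicate 3 entry. Over all 2971 optimal peaks, by the same window, 629 had a replicate 3 entry but no replicate 2 entry, and 2247 had entries in both. Around the ranks of the strong pair, from 226 to 436, 4 of 211 had no replicate 2 entry and 1 of 211 no replicate 3 entry. Both sets of ranks were set after the members' ranks were known. Over all bound protein-coding genes, 27.1% had no replicate 2 entry within 500 bp of a start and 0.390% had no replicate 3 entry. These shares count genes in a wider window, so they are not directly comparable with the counts of peaks.

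At the strong pair the libraries placed the summit at nearly the same base. The replicate summits were 4 bp apart at His2Av and 7 bp apart at His4r, where the median over the 2247 optimal peaks with an entry in both libraries was 18.0 bp. Those peaks were not limited to the strength of this pair (the median signal of all optimal peaks was 209). Summit distances at peaks of like strength were not compared. The ratio of replicate 3 to replicate 2 signal was 1.16 at His2Av and 0.943 at His4r. Over the 2247 peaks its median was 0.921, with quartiles of 0.723 and 1.19, so both members lay within the middle of that spread. With 2 libraries in 1 group, no test of the signal at a single gene was possible.

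Next, the position of each summit was set against the starts around it. At His2Av the summit lay 88 bp upstream of the start, in intergenic sequence, and 34 bp from the start of ball. This neighbour runs the opposite way and encodes ballchen, a kinase of the histone H2A tail also called nucleosomal histone kinase-1. At His4r the summit was also intergenic, 28 bp upstream of the first start and 24 bp from the start of put, the gene for Punt, a type II receptor for TGF-beta family ligands. At His2Av the start of ball was the nearer in every list. At His4r put was the nearer in the pooled list and replicate 3, whereas in replicate 2 the summit lay 21 bp from His4r and 31 bp from put. With starts 122 bp and 52 bp apart, the peak cannot be assigned to either gene of the pair.

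At His3.3A the summit lay in the 5' UTR, 47 bp downstream of the first start and 29 bp upstream of the second, and 89 bp from the divergent start of CG14036. His3.3B stood apart in having no other gene's start within 500 bp. Its optimal summit was in the 5' UTR, 42 bp downstream of the most upstream start. Replicate 3 listed no summit in that exon: its strongest lay 195 bp downstream of this start, in an intron, and its next 17 bp upstream, in intergenic sequence. The nearest start of another gene, that of the oligosaccharyltransferase subunit gene Ost48, was 1888 bp from the optimal summit. The gene's other 2 starts, 1014 and 1615 bp from it, had no optimal peak, although 1 pooled entry of signal 77.1 (rank 6098) lay 226 bp from one of them, in an intron, and a further entry of 55.2 (rank 11190) overlapped the optimal peak upstream. Thus 3 of the 4 members shared their peak with a divergent coding gene. Among the 2561 protein-coding genes with an optimal peak, 61.0% had another coding gene's start within 500 bp of their strongest summit. For 29.4% of the 2561, such a start was the nearer one. Both shares count starts on either strand and are not limited to divergent genes.

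**Figure D2:**
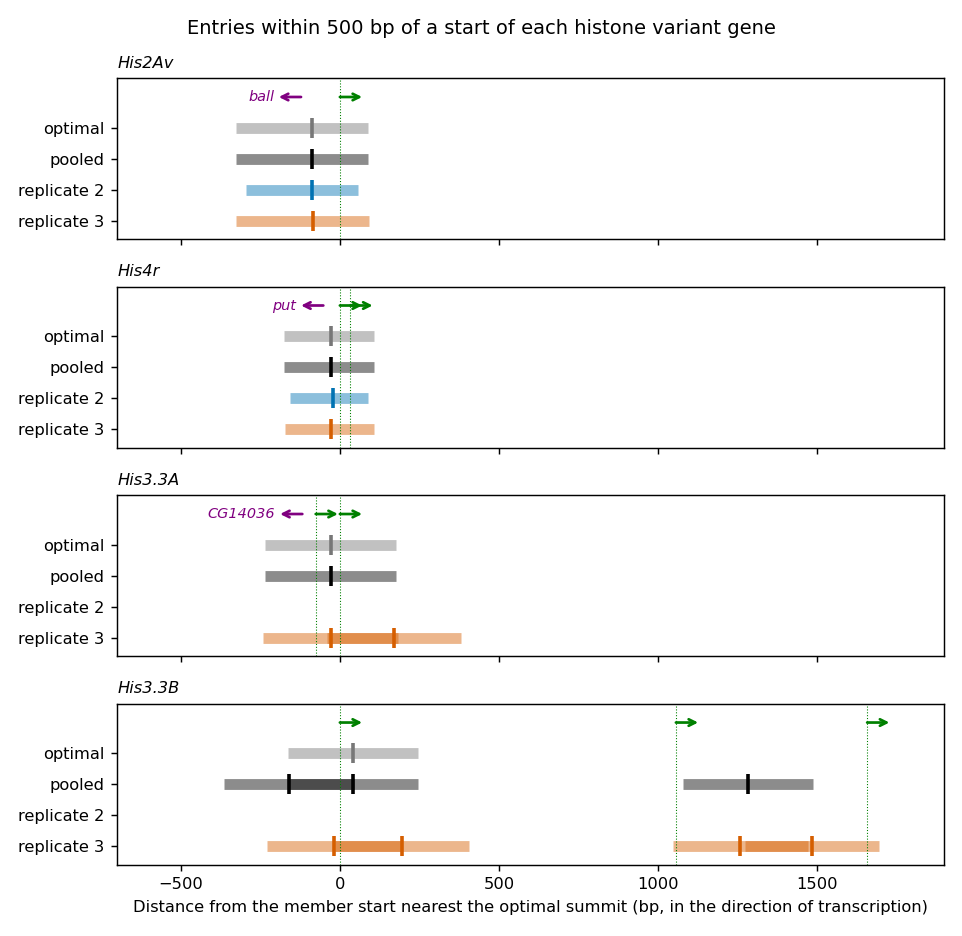
Entries of each list (bars, with the summit as a tick) around the histone variant genes, by distance in bp from the member start nearest the optimal summit. Green arrows mark the member's starts and purple arrows the nearest start of a neighbour. The summits of His2Av and His4r lie between divergent starts in every list, and replicate 2 is empty at His3.3A and His3.3B.

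The strong pair and the weak pair also differed in the strings at their summits. Within 50 bp of the summit, AGGGNTG was present at His2Av and His4r and at neither H3.3 gene. It was found at 17.2% of the 2971 optimal summits and at 2.75% of the weaker pooled candidates. At His2Av it covered the summit itself, from 1 base before to 5 bases after it, as AGGGGTG. At His4r it began 23 bases before the summit, as AGGGCTG, and was part of a full CAGGGCTG, whose first base is the first transcribed base of put. The full string occurred at 7.54% of optimal summits and 0.296% of weaker candidates. At His2Av the nearest full CAGGGCTG was farther out, 127 to 134 bases before the summit. Within 150 bp, 9.32% of optimal summits and 0.588% of weaker candidates held it.

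CGATA also matched at His2Av (2 sites within 50 bp) and His4r (2 sites), against 23.0% of optimal and 13.2% of weaker summits. Its 2 sites in the short spacer of His3.3A lay 58 to 74 bases from the summit and so only in the wider window of 150 bp. In that window CGATA was common, at 47.3% of optimal and 33.0% of weaker summits. GGTCACACT matched at His3.3A alone, 27 to 35 bases after the summit and across the second start of the gene, where 1.41% of optimal and 0.429% of weaker summits held it. Neither TATCGATA (4.11% of optimal, 0.810% of weaker summits) nor TATAAA (17.5% and 12.97%) matched within 50 bp at any member, and His3.3B held none of the 6 strings within 50 or 150 bp. These are matches of letters, and binding at them was not tested.

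The replication-dependent genes had no entries. The annotation holds 111 of them, namely 23 His1, 20 His2A, 23 His2B, 23 His3 and 22 His4 genes, all within 124729 bp of arm 2L (chr2L:21416953-21541681). None had an optimal peak, none had an entry in the pooled list, and none had an entry in the list of replicate 2 or of replicate 3. The 8 annotated His-Psi pseudogenes of the array also had none. No summit of any list lay anywhere within the array. Each candidate list is limited to 30000 entries, so a gene without an entry has an unknown and not a zero level.

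The array lay in a long stretch of the arm without entries. In the pooled list the nearest summits were 15441 bp to one side and 31982 bp to the other, which left 172151 bp without an entry, the longest such stretch between 2 summits on 2L. Over that arm the median spacing of summits was 2019 bp. It was also the longest in replicate 2 (157146 bp) and the fourth longest in replicate 3 (172132 bp). In the sparser optimal list it was the fifth longest (461509 bp). That stretch reaches far beyond the array of 124729 bp and holds 29 other coding genes.

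**Figure D3:**
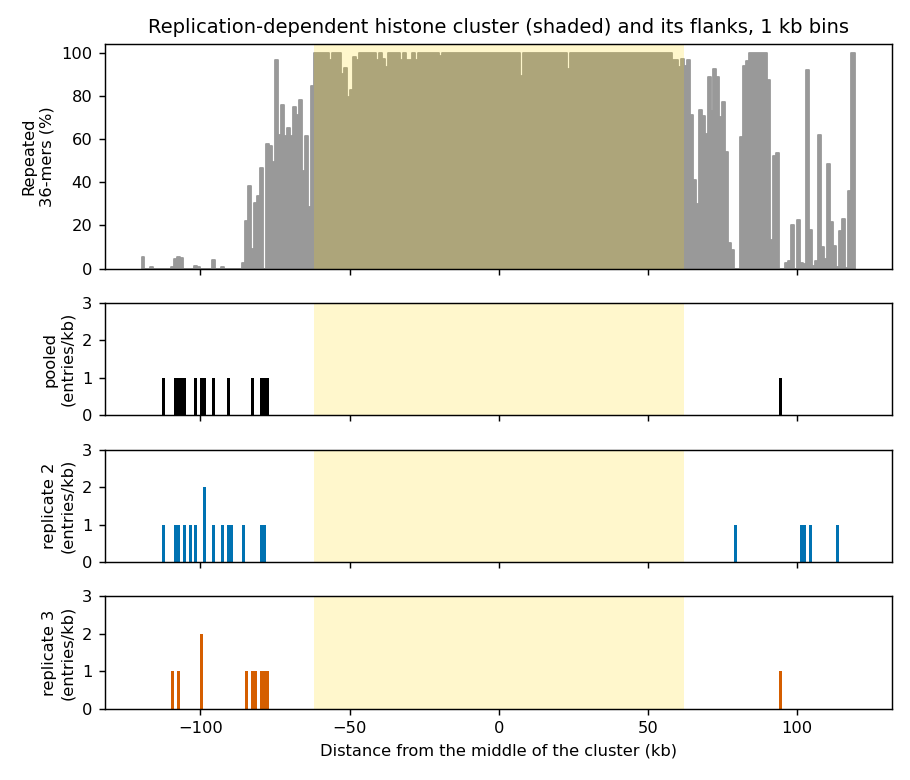
Repeated 36-mers (top, percent of 36-mers in each 1 kb bin that occur more than 1 time in the genome) and entries per kb in the pooled, replicate 2 and replicate 3 lists, by distance in kb from the middle of the replication-dependent array (shaded). Inside the array 98.9% of 36-mers are repeated and no list has an entry, and the first entries appear in the flanks.

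The sequence of the array was then measured for repetition, since a short read from a repeated sequence has no single place in the genome. Within 500 bp of the starts, 0 of 1001 36-mers at His2Av, 0 of 1034 at His4r, 6 of 1077 at His3.3A (0.557%) and 6 of 2603 at His3.3B (0.231%) occurred more than 1 time in the reference genome. At the 111 replication-dependent genes the median share was 100%, with a lowest value of 79.6%, at His2B:CG33908. Over the whole array it was 98.9%, against 14.0% of all 36-mers on the chromosome arms. Coding sequences are copied to a degree that differs by family. All 23 His2B genes share 1 sequence, and the 23 His3 genes encode 1 protein. The commonest sequence of its kind is held by 18 of 23 His3 genes and 17 of 20 His2A genes. For His4 it is held by 13 of 22 genes. Of the 23 His1 genes only 8 have it, with 7 distinct sequences and 5 distinct proteins in that family. No source used here gives the read length or the handling of reads with several places, although the deposited descriptions name signal tracks of unique reads among the products.

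Other genes were then grouped by the repeated share at their starts, as a description with no test. Outside the histone array, 129 protein-coding genes had at least 90% repeated 36-mers at their starts, and none had an optimal peak or a pooled entry. With 50 to 90% repeated, 2 of 80 genes had an optimal peak (2.50%) and 5 had a pooled entry (6.25%). With under 1% repeated, the class to which all 4 members belong, 2482 of 13002 genes had an optimal peak (19.1%) and 6811 a pooled entry (52.4%). Of the array genes, 106 were in the class of at least 90% and 5 in the class of 50 to 90%. Summits hardly fell in repeated sequence at all: the 36-mer starting at the summit was repeated for 0.101% of optimal peaks and 0.327% of pooled entries. Whether ZIPIC occupies the array in these embryos was not tested by these lists. The assembled array has 100 unknown bases, and fly genomes are known to carry more copies than the assembly.

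**Figure D4:**
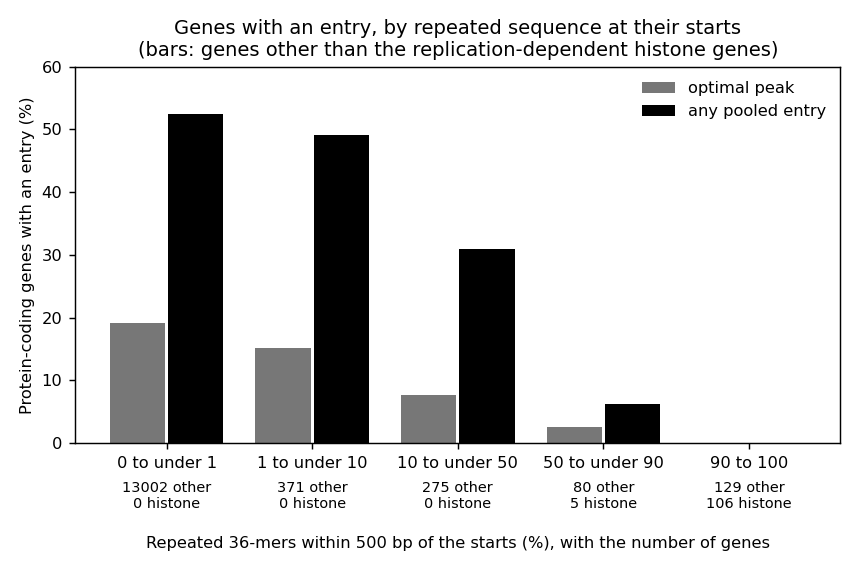
Share of protein-coding genes outside the histone array with an optimal peak (grey) or any pooled entry (black), in percent, by the share of repeated 36-mers within 500 bp of their starts. Numbers of genes are given below each class. Shares are 0 in the class of at least 90%, which holds 106 of the 111 replication-dependent histone genes.

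Strings seen at the strong pair occur in the array too. All 20 spacers between divergent His2B and His2A genes held AGGGNTG, as the same AGGGGTG letters that cover the His2Av summit, and none held CAGGGCTG. The 22 spacers between His4 and His3 genes held neither, and CGATA occurred in 17 of them. The copies share 1 origin, so these counts do not stand for independent sequences. Within 150 bp of the summit, a longer stretch than any of these spacers, AGGGNTG was found at 25.4% of optimal and 7.55% of weaker summits. For CGATA these shares were 47.3% and 33.0%. Binding at the array matches was not tested.

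Genes that act on the variant histones were examined as lists. Of 15 subunits of the Domino and Tip60 complexes, which exchange H2A.V, 6 had an optimal peak (40.0%, beside 18.3% of all protein-coding genes), with a median signal of 202 against 249 for all bound coding genes. Gas41, which encodes a YEATS-domain reader of acetylated histones, led with a signal of 2350 (chr2L:6950062-6950543, 107 bp from its start, 1276 in replicate 2 and 1079 in replicate 3). YL-1, whose product binds the variant histone, had 1408 (chr2L:10970159-10970558, 40 bp, 778 in replicate 2 and 613 in replicate 3). Gas41 exceeded His2Av in all 3 lists, and YL-1 did so in the pooled list and replicate 2 but not in replicate 3 (613 against 731 at His2Av). The peak counted for pont, a gene for an AAA+ ATPase, had 226 and lay nearer to the start of Sirt6. The other bound subunits were MrgBP, Brd8 and E(Pc), with signals of 154 to 178. In replicate 2, MrgBP had 76.2, Brd8 had 23.9, near that list's lowest signal of 22.96, and E(Pc) had no entry. A pooled entry was present at 10 of the 15 (beside 50.7% of all protein-coding genes). Among the subunits without an optimal peak, Tip60 had a weaker pooled entry of 100.8 (rank 4101) and dom had none.

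Histone chaperone genes had an optimal peak at 4 of 15 (26.7%, beside 18.3% of all protein-coding genes), with a median signal of 1105 against 249 for all bound coding genes. The peak of signal 1951 counted for yem, which encodes the partner of HIRA in H3.3 deposition, lay 390 bp from its start and nearer to that of Ctl2. Caf1-105, for a subunit of the replication-coupled assembly factor CAF-1, had 1400, with the start of CG11777 nearer. Spt6, for a transcription elongation factor and histone chaperone, had 809 and was itself nearest, with 409 in replicate 2 and 406 in replicate 3. The fourth, dre4, encodes a FACT subunit and had 189, with no entry in replicate 2. The H3.3 chaperone gene Hira had only a weaker pooled entry of 63.2, and XNP none.

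Of 7 genes for the histone locus body and histone mRNA processing, which serve the replication-dependent array, 1 had an optimal peak (14.3%, beside 18.3% of all protein-coding genes). It was Slbp, the gene for the stem-loop binding protein (signal 144, rank 2474, no entry in replicate 2). Neither of the other 2 variant genes had one. For cid, the centromeric H3 variant, a pooled entry of 90.8 ranked 4773, and BigH1, the embryonic linker histone, had none. No set test was run on these lists, and none is called distinct from other genes.

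Finally, for each member the 2 protein-coding genes with the most similar signals were looked up, by distance on the log2 signal scale over the pooled list and the replicate lists that hold the member. For His2Av they were Eno and Rrp40, which share a pooled peak of 1380 (log2 distance 0.034 and 0.038 over 3 lists, among 1857 genes). For His4r they were Ccz1 (961, distance 0.053) and px (986, distance 0.055). For His3.3A they were Brca2 and CG4612, both at 127 with 92.9 in replicate 3, and for His3.3B Bgb and Mettl2, both at 128 with 91.2 (over 2 lists, among 690 and 691 genes without a replicate 2 entry). Values were identical within each of these pairs, so the 2 genes of a pair are not taken as separate matches. The 2 libraries limit this likeness to strength, and it says nothing of the genes' roles.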

How the data were processed

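Per the deposited descriptions, the authors called candidate entries in each replicate and in the pooled replicates against a control alignment, on builds dm3 and dm6, and derived the optimal peaks by an irreproducible discovery rate procedure. No source used here names an aligner or a peak caller. In the deposited lists, the signal is a score per entry, and each entry has a −log10 q-value, at its maximum for 74.4% of optimal peaks and not used. The 4 dm6 lists were used. The dm3 lists, the signal tracks and the control were not analysed here. Depth is unknown.

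Summits (deposited offsets) were placed within 500 bp of transcript starts of Ensembl release 115, without transposable elements. Release 6 RefSeq sequence gave strings, coding sequences (aligned with Biopython 1.88) and k-mers of 36, 50 and 100 bases, counted on both strands over all scaffolds. Python 3.11.15, pandas 2.3.3 and NumPy 2.4.6 were used, and k-mer counting and placement were tested on simulated data. No hypothesis test was run, because the members and lists were chosen with earlier results of these data known. Named genes were the members, neighbours within 500 bp of their summits, bound genes of the lists, and the 2 genes nearest in signal to each member. Hira, XNP, dom, Tip60, cid, BigH1, Ost48 and the array genes named with their sequences were named after their values were seen. Alternatives were other distances, placement by interval, a stricter list, single replicates, k-mer lengths and the summit window.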

Additional observations from a re-analysis of the deposited data

How the results depend on the processing

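All 4 members had a peak within 250 bp and 1000 bp of a start and with entries placed by interval. In the stronger part of the optimal list 2 of 4 did, His2Av and His4r. When a replicate's own 2971 strongest entries replaced the optimal list, the count ranged from 2 (without replicate 3) to 4 (without replicate 2). The share of protein-coding genes with a peak was 15.5% within 250 bp, 20.4% within 1000 bp, 19.3% by interval, 10.8% in the stronger part of the list, and 13.7% (without replicate 3) to 20.1% (without replicate 2). The counts of 0 replication-dependent genes with a pooled or replicate entry held under all of their alternatives. Over the array, 98.6% of 50-mers and 97.3% of 100-mers were repeated. Matches of members to strings numbered 6 within 50 bp and 8 within 150 bp of the summit. For His3.3A and His3.3B no value without replicate 3 could be given, as replicate 2 lists no entry. The lists set a limit below which levels are unknown. No paired analysis was possible because there is 1 group.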

Other observations

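The pooled signal was close to the sum of the replicates' signals. Over the 2247 optimal peaks with an entry in both libraries within 100 bp, the pooled signal divided by the sum had a median of 1.00, with 0.951 and 1.14 at the 5th and 95th percentiles. At His2Av the pooled signal was 1.00 times the sum of 1359, and at His4r 1.00 times the sum of 965. At His3.3A the pooled signal less that of replicate 3 was 33.0, and at His3.3B, with the replicate 3 entry nearest to the optimal summit, it was 63.0. Both exceed 22.96, the weakest signal that replicate 2's list holds, and that list has no entry at either gene. The same held for 612 of the 629 optimal peaks with a replicate 3 but no replicate 2 entry (97.3%), where the median remainder was 80.4. Such remainders are not measured replicate 2 levels. The spread given above comes only from peaks with an entry in both libraries. It therefore does not show how far the pooled signal departs from the sum at peaks without a replicate 2 entry. The cause was not tested.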
